A study of Mus musculus with 6 samples.

Results

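Proteasome genes were followed in whole epidermis of the mouse, 2 h after wounding and without a wound. They were chosen by name, as the genes whose symbol begins with Psma, Psmb, Psmc, Psmd, Psme, Psmf or Psmg and a number, leaving out the immunoproteasome genes Psmb8, Psmb9 and Psmb10. This took 51 of the 47455 gene symbols in the count table. Of these, 45 are annotated proteasome genes, 4 are pseudogenes and 1 is Psme2b, a near-identical copy of Psme2. The last, Psmc3ip, is a meiotic recombination cofactor that only shares the letters. A filter on low counts left 46 genes in the test. The testis subunit Psma8 and the pseudogenes Psmb5-ps, Psmb6-ps, Psmb6-ps2 and Psmb7-ps2 did not pass it.

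The proteasome degrades proteins that carry ubiquitin chains. Its 20S core is a barrel of alpha rings, which form the gate, and beta rings, which hold the peptide-cutting sites. The 19S regulatory particle caps the barrel, with a base of ATPases that unfold and feed in the substrate and a lid that removes the ubiquitin. Other caps, the PA28 and PA200 activators, open the gate without ATP. Dedicated chaperones help to build the core and the base and are not part of the finished particle. When proteasomes are blocked, mammalian cells raise the genes of most subunits together through the transcription factor Nrf1, encoded by Nfe2l1.

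The wounded group was epidermis of C57BL/6 mice aged 6 to 8 weeks, collected 2 h after 8 punch wounds of 3 mm to the back. The non-wounded group was epidermis of the same 3 mice. Each mouse gave 1 library of each kind, so there were 3 libraries per group, made by poly-dT capture after the dermis had been removed with trypsin. The series title concerns Hspa8 and ICAM-1 as mediators of gd T cell activation after damage, and the comparison here asks how proteasome transcripts differed soon after wounding. The labels do not say where on the mouse the non-wounded skin was taken.

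The wounded libraries held between 20746185 and 26814845 estimated counts and the non-wounded libraries between 21802573 and 23537639. CPM below are counts scaled to a common total, using each library's total over tested genes times its TMM factor (trimmed mean of M-values). These factors lay between 0.887 and 0.898 in wounded and were 1.12 in all 3 non-wounded libraries. Each log2 fold change sets wounded over non-wounded and comes from edgeR's quasi-likelihood test, with adjusted p over all 16079 genes tested, and a gene was called at an adjusted p under 0.05. Summed keratinocyte markers (6 genes, Krt5, Krt14, Krt1, Krt10, Trp63 and Dsp) lay between 28983 and 33837 CPM in wounded and between 27083 and 34495 CPM in non-wounded libraries, so transcripts of epidermal cells were abundant in both groups.

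With TMM scaling, transcripts of most structural subunits of the proteasome were higher in wounded epidermis by modest amounts, while no assembly factor was called higher. Of all genes tested 24.0% were called higher, and with only 7 assembly factors the absence of a higher call says little. The assembly factors had fewer counts (means of 81.3 to 448.5 per library) than the structural subunits (938.5 to 5712), which makes a call harder to reach. The contrast between these classes was not tested. Of the 46 genes tested, 21 were called higher, 2 were called lower and 23 were not called. Higher calls were thus 45.7% of these genes, against 24.0% of all genes tested, and lower calls 4.35%, against 24.4% of all genes tested. The shares of all genes were not matched for counts, and higher counts make small differences easier to call. Calls in either direction, 23 of 46, were near the 48.4% of all genes. Fold differences of the 21 higher genes ran between 1.17 and 1.95. All 21 were higher in 3 of 3 mice, which their selection from these same libraries makes likely. The median log2 fold change of the 46 genes was 0.23, against -0.03 over all genes tested, and their interquartile range was 0.02 to 0.42, against -0.54 to 0.46 over all genes.

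Within single mice the median log2 ratio of the 46 genes was 0.23, 0.23 and 0.32, against -0.02, -0.03 and -0.02 over all genes tested. With TMM scaling 36, 35 and 35 of the 46 were positive, and the share of positive ratios over all genes was not counted. All 3 wounded libraries lay above all 3 non-wounded ones for 25 genes, and below them for 4. Over all genes tested, the corresponding shares were 28.8% above and 29.7% below, and 58.5% did not overlap. The 3 libraries per group allow no two-sided exact permutation p below 0.1, and each gene's test therefore comes from the fit across all genes.

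How many subunits count as higher depends on the scaling. With library totals alone, log2 fold changes of all genes moved by -0.32 (median over genes). Then 4 of the 46 genes were called higher and 14 lower, against 13.5% and 41.4% of all genes tested. The 14 include Psmc3ip, and 13 are annotated proteasome genes. The 4 were Psma3, Psmd1, Psmd11 and Psme3. Upper-quartile factors moved all values by -0.15 (median) and gave 12 higher and 5 lower. The share of all genes called with them was not counted, so it is not known if these are many or few. The place of these genes relative to all others does not depend on such factors, and their median lay 0.26 above the median of all genes on the log2 scale. Of the 21 higher genes, 17 still had a positive log2 fold change with library totals. A mouse block, which takes out differences between animals, gave 23 higher and 3 lower.

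**Figure D1:**
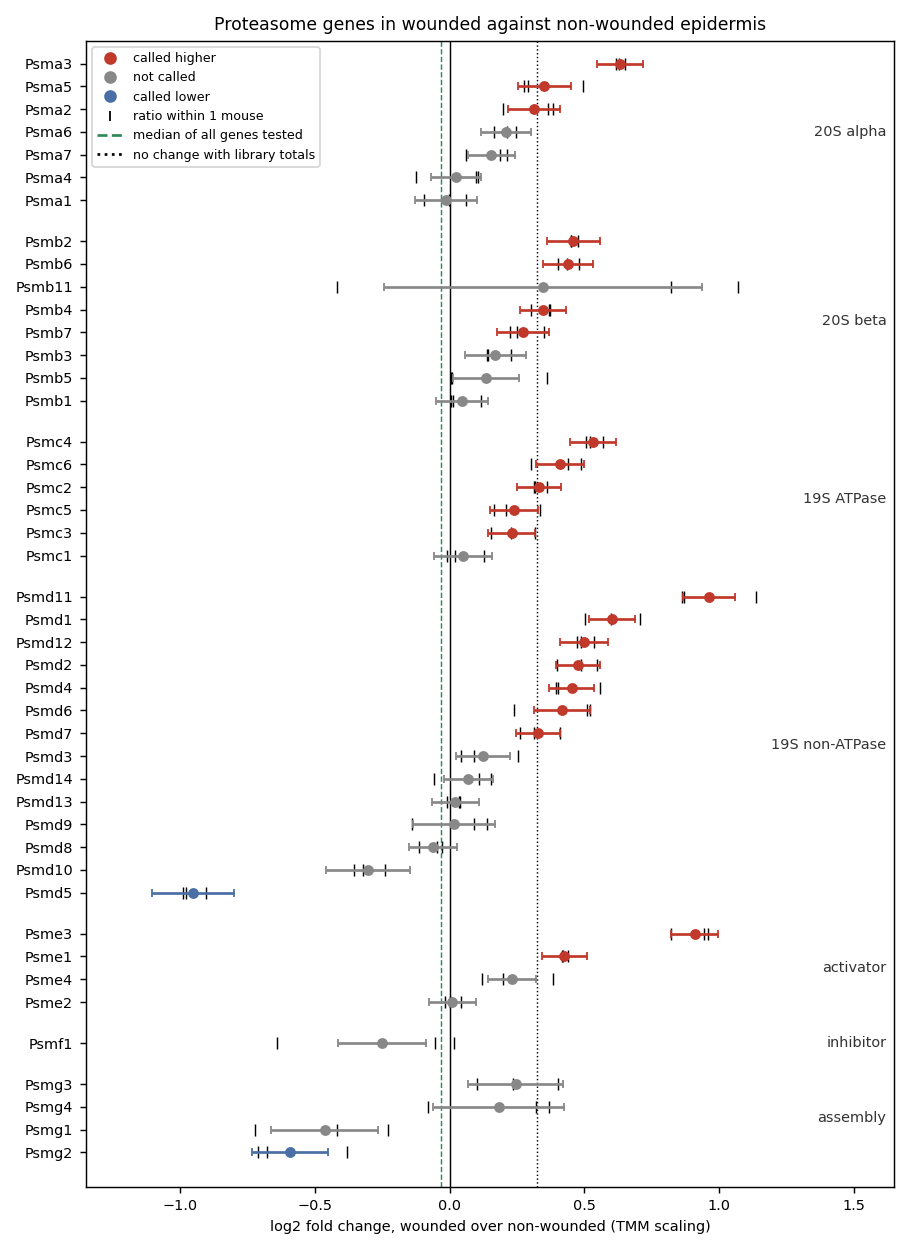
Log2 fold change, wounded over non-wounded (x axis, TMM scaling), of 44 annotated proteasome genes (rows, by class), with bars of 1 SE and short ticks for the ratio within each of the 3 mice. Red genes were called higher, blue lower and grey not called by edgeR, and the dotted line shows where no change would lie with library totals. Most structural subunits lie right of the median of all genes, and Psmd5 and Psmg2 lie at the left.

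Among called genes, the 2 largest rises, Psmd11 and Psme3, and the largest fall, Psmd5, were each close to a factor of 2, and with Psmg2 they were the genes called in the same direction under all 16 settings tried. Psmd11 (Rpn6) is a lid subunit that clamps the lid to the core. Psme3 (PA28 gamma) is a nuclear activator, and Psmd5 (S5b) is a chaperone of base assembly. Their upstream sequences are shown with that of Psmb6, the caspase-like catalytic subunit, as the 250 bases before the transcript start in RefSeq, genome build GRCm38.p6, 5′ to 3′ on the strand of the gene. Capitals mark matches to the core of the antioxidant response element, the site to which Nrf1 and Nrf2 bind, searched as TGACNNNGC or TGAGNNNGC on both strands. Each motif was counted on its own, whether or not it overlapped another. Psmd11 stands at chr11:80428365-80428614 (plus strand), Psme3 at chr11:101315963-101316212 (plus strand), Psmb6 at chr11:70525107-70525356 (plus strand) and Psmd5 at chr2:34870963-34871212 (minus strand).
Psmd11: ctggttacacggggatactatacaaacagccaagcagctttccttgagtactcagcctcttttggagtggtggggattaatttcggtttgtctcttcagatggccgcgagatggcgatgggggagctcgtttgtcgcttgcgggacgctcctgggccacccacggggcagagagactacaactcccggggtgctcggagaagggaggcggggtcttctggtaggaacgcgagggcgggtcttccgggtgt
Psme3: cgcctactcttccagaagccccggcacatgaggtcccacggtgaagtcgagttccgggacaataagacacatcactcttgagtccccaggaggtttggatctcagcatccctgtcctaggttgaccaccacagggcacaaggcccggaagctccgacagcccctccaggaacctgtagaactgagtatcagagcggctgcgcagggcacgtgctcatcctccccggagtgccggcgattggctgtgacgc
Psmb6: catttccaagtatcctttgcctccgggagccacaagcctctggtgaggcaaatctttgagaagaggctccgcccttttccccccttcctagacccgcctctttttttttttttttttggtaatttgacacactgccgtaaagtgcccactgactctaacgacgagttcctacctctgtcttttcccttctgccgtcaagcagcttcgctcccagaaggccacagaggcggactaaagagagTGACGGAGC
Psmd5: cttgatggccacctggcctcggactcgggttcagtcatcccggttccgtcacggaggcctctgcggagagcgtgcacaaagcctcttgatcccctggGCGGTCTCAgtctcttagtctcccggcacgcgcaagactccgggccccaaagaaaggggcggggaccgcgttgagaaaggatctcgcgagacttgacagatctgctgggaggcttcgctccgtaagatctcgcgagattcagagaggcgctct

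The windows of Psmd11 and Psme3, which had the largest rises, held no match to these letters. In Psmb6 the match began 9 bases before the start, and in Psmd5, which fell, 153 bases before it. The start that RefSeq gives for Psmd5 lies inside the span that GENCODE gives the gene. RefSeq windows were found for 39 genes of the name pattern, Psmc3ip and Psme2b among them, 42 windows in all. Of these windows 14 held the core (33.3%), that of Psmc3ip included, against 25.7% of the 13766 windows of tested genes. By call, the core stood in 5 of 18 windows of higher genes (27.8%) and in 8 of 23 windows of genes that were not called (34.8%). The heat shock element pair (GAANNTTC or TTCNNGAA) was in 9.52% of the proteasome windows, against 10.2% of windows of tested genes. The Psme3 window holds 1 such pair, the ttccagaa that begins 241 bases before the start. The CCAAT box was in 33.3%, against 34.8%, and the Psme3 window holds it on the opposite strand, as the attgg near its end. A match describes letters only, and binding was not measured.

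The alpha ring was the class with the smallest median rise among the subunits of the core and the ATPase base, a ranking that was not tested. Of 7 alpha subunits tested, 3 were called higher (Psma2, Psma3 and Psma5), none lower and 4 were not called, with a median log2 fold change of 0.21. With library totals, 1 was higher and 2 were lower. Over all genes tested, 24.0% were higher and 24.4% lower with TMM, and 13.5% and 41.4% with library totals. Psma3 had 81.7, 81.0 and 83.3 CPM in wounded epidermis, against 52.1, 52.4 and 54.3 CPM in non-wounded epidermis (log2 fold change 0.63, SE 0.09, adjusted p = 2.09e-04 by edgeR). Its groups did not overlap, and the 3 mice differed little, with ratios of 0.65, 0.63 and 0.62. Psma5 had 60.5, 64.0 and 63.0 CPM in wounded epidermis, against 49.4, 52.9 and 44.7 CPM in non-wounded epidermis (log2 fold change 0.35, SE 0.10, adjusted p = 0.0139). The wounded libraries of Psma5 were all higher too, but by less.

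Part of the Psma3 value rests on how reads were divided between near-identical genes. The processed pseudogene Gm13835 is 100% identical to a Psma3 transcript over 685 bases and was given nearly as many counts, a mean of 1293 per library against 1548 for Psma3 (GRCm38 ENSMUSG00000060073.9, chromosome 12, 70974621 to 70996347, plus strand). Gm13835 itself had 54.7, 64.4 and 68.4 CPM in wounded epidermis, against 50.3, 62.1 and 34.4 CPM in non-wounded epidermis, with overlapping groups. Summed with its copies, Psma3 had a log2 fold change of 0.51 (SE 0.11, adjusted p = 0.00289 by edgeR) and was still called higher. Copies of the other alpha subunits that are in the table averaged at most 1.19 counts per library.

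Psma2 had a log2 fold change of 0.31 (adjusted p = 0.0199 by edgeR). The remaining alpha subunits stood at 0.21 for Psma6, 0.15 for Psma7, 0.02 for Psma4 and -0.01 for Psma1. For Psma6 and Psma7 all wounded libraries nevertheless lay above all non-wounded ones. Psma6 was called only with the mouse block (adjusted p = 0.0476, against 0.0874 without it). The call of Psma2 was lost on omitting the wounded library of mouse 1 or 2 or mouse 3's non-wounded library (adjusted p between 0.0618 and 0.0732 by edgeR). That of Psma5 was lost on omitting mouse 2's wounded library (0.0617) or mouse 3's non-wounded library (0.0536).

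The beta ring holds the catalytic subunits, and of these Psmb6 and Psmb7 were called higher while Psmb5 was not. In all, 4 of 8 beta genes tested were called higher and none lower, with a median log2 fold change of 0.31. That median includes the thymic form Psmb11 (log2 fold change 0.35, SE 0.59), which had few counts. With library totals none was higher and 1 lower. For all genes tested, 24.0% were higher and 24.4% lower with TMM, and 13.5% and 41.4% with library totals. Psmb6 (GRCm38 ENSMUSG00000018286.6, chromosome 11, 70525367 to 70527858, plus strand), the beta1 subunit that cuts after acidic residues, had 93.9, 95.6 and 84.2 CPM in wounded epidermis, against 69.4, 68.6 and 63.8 CPM in non-wounded epidermis (log2 fold change 0.44, SE 0.09, adjusted p = 0.00302 by edgeR). Psmb7, the trypsin-like beta2 subunit, had 129, 129.9 and 118 CPM in wounded epidermis, against 111, 109 and 92.8 CPM in non-wounded epidermis (log2 fold change 0.27, SE 0.10, adjusted p = 0.0408). Psmb5, the chymotrypsin-like beta5 subunit and the main target of proteasome inhibitor drugs, had 48.4, 41.1 and 36.4 CPM in wounded epidermis, against 37.7, 40.9 and 36.1 CPM in non-wounded epidermis (log2 fold change 0.13, SE 0.12, adjusted p = 0.395). The groups were apart for Psmb6 and Psmb7 and overlapped for Psmb5, whose ratios within mice were 0.36, 0.01 and 0.01. Whether Psmb5 differs in response from the other catalytic subunits was not tested.

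Psmb7 was the least firm of the beta calls. It was lost on omitting the wounded library of mouse 1 or 2 or either of the non-wounded libraries of mouse 2 and 3 (adjusted p between 0.0665 and 0.146 by edgeR), and also with no filter on low counts (0.0771). Psmb7 overlaps Nek6 on the opposite strand, which had a mean of 136 counts per library against 2681 for Psmb7, and the sources used here do not say whether reads were counted by strand.

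Among the structural beta subunits, Psmb2 (beta4) showed the largest rise of the ring. It had 79.1, 75.5 and 68.6 CPM in wounded epidermis, against 56.9, 55.3 and 50.2 CPM in non-wounded epidermis (log2 fold change 0.46, SE 0.10, adjusted p = 0.00339 by edgeR), and the ratios within mice were 0.47, 0.45 and 0.45. Psmb4 (beta7) was called higher at a log2 fold change of 0.35 (adjusted p = 0.00675). Psmb3 (beta3) at 0.17 and Psmb1 (beta6) at 0.05 were not called. Psmb11, the beta5t form of the thymic cortex, had a mean of 18.0 counts per library and between 0.265 and 1.29 CPM over all 6 libraries, so that a difference was not detectable at this depth.

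**Figure D2:**
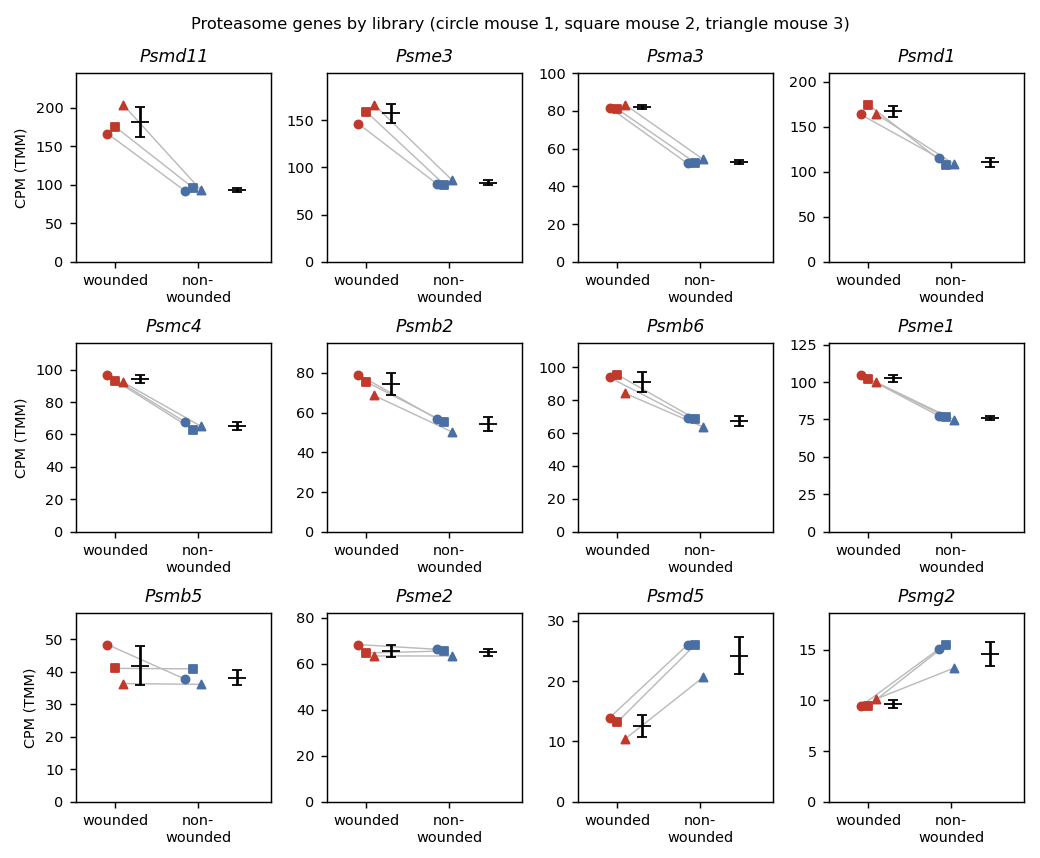
CPM with TMM scaling (y axis, from 0) of 12 proteasome genes in each library, wounded left and non-wounded right, with circle, square and triangle for mouse 1, 2 and 3 and grey lines joining the libraries of 1 mouse. Black bars are the mean ± SD of 3 libraries. Psmd11 and Psme3 separate most widely, Psmb5 and Psme2 overlap, and Psmd5 and Psmg2 are lower in all 3 wounded libraries.

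In the finished core every alpha and beta subunit is present in equal number, but the transcripts were not. TPM, which divides by transcript length, put Psma3 highest in wounded epidermis at 341 TPM (mean of 3 libraries) and Psmb4 highest in non-wounded epidermis at 328 TPM. The lowest of the 14 were Psmb5 in wounded epidermis at 63.8 TPM and Psma5 in non-wounded epidermis at 71.6 TPM. The SD of log2 TPM among the 14 subunits was 0.67, 0.68 and 0.73 in wounded, against 0.62, 0.59 and 0.61 in non-wounded libraries. Without Psma3, whose level depends on its copy, it was 0.59, 0.60 and 0.62 in wounded, against 0.56, 0.55 and 0.55 in non-wounded libraries. The transcript levels were thus a little more unequal in all 3 wounded libraries either way, with no test made of it.

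Summed over the 14 core subunits, the deposited TPM were 2132 ± 48.4 in wounded and 2204 ± 105 in non-wounded epidermis (mean ± SD, n = 3 each), with overlapping ranges. On the CPM scale with TMM factors the same sum was 1266 ± 61.2 in wounded and 1072 ± 68.1 in non-wounded epidermis, with no overlap. The share of all transcripts that encode the core was therefore close in both groups (0.213% of TPM in wounded and 0.220% in non-wounded), and the rise is one relative to the trimmed mean of all genes. In such bulk samples, fewer cells of a type and less RNA per cell cannot be told apart.

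**Figure D3:**
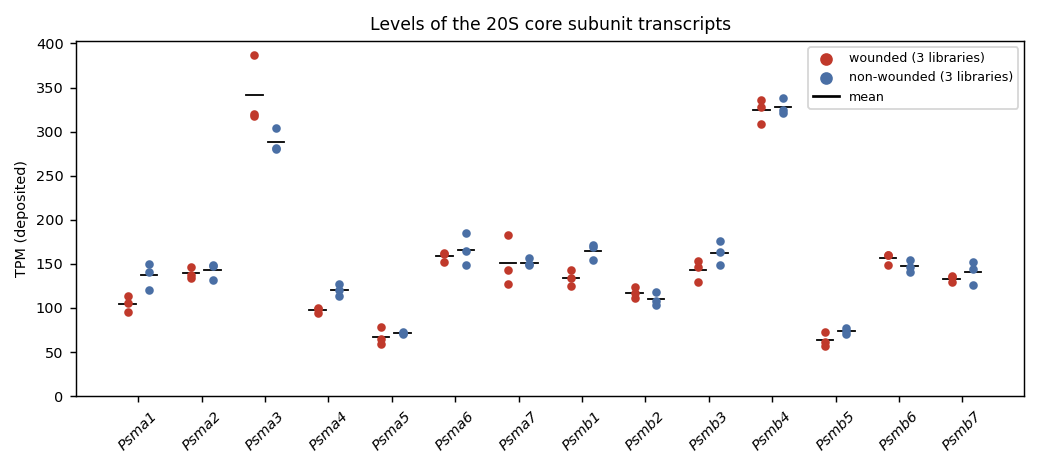
Deposited TPM (y axis, from 0) of the 14 subunits of the 20S core in each of 3 wounded (red, left) and 3 non-wounded (blue, right) libraries, with a line at each mean. Psma3 and Psmb4 stand highest and Psma5 and Psmb5 lowest in both groups.

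In the ATPase ring of the base, 5 of 6 subunits were called higher and none lower, with a median log2 fold change of 0.28. With library totals, none was higher and 1 (Psmc1) lower. The shares of all genes tested were 24.0% higher and 24.4% lower with TMM, and 13.5% and 41.4% with library totals. Psmc4 (Rpt3) had 96.9, 93.3 and 92.2 CPM in wounded epidermis, against 67.6, 62.9 and 65.0 CPM in non-wounded epidermis (log2 fold change 0.53, SE 0.09, adjusted p = 6.37e-04 by edgeR). Psmc6 (Rpt4) had 123, 121 and 119 CPM in wounded epidermis, against 90.8, 98.2 and 84.9 CPM in non-wounded epidermis (log2 fold change 0.41, SE 0.09, adjusted p = 0.00364). Both were higher in every mouse, with groups that did not overlap. Psmc1 (Rpt2), the ATPase that was not called, had 125, 122 and 102 CPM in wounded epidermis, against 123, 112 and 103 CPM in non-wounded epidermis (log2 fold change 0.05, SE 0.11, adjusted p = 0.738). Its libraries overlapped throughout.

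Psmc2 (Rpt1) was called at a log2 fold change of 0.33, Psmc5 (Rpt6) at 0.24 and Psmc3 (Rpt5) at 0.23. The calls of the last pair were marginal, at adjusted p = 0.0444 for Psmc5 and 0.0492 for Psmc3 by edgeR. The call of Psmc3 was lost whichever of the 6 libraries was left out (adjusted p between 0.0683 and 0.193). That of Psmc5 was lost without any 1 library except the wounded one of mouse 3 (0.0522 to 0.202). Both were also lost with no filter on low counts (0.151 for Psmc3 and 0.141 for Psmc5). Psmc3 overlaps Slc39a13 on the opposite strand, which had a mean of 311 counts per library against 3124 for Psmc3.

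The 11 non-ATPase subunits of the 19S particle, leaving out 3 chaperones that carry Psmd names, gave 7 higher, none lower and 4 not called. Their median log2 fold change was 0.42, and of all genes tested 24.0% were higher and 24.4% lower. Psmd11 (GRCm38 ENSMUSG00000017428.16, chromosome 11, 80428615 to 80473248, plus strand) had 166, 175 and 204 CPM in wounded epidermis, against 91.5, 95.8 and 92.7 CPM in non-wounded epidermis. That is a 1.95-fold difference (log2 fold change 0.96, SE 0.10, adjusted p = 3.38e-05 by edgeR), with ratios within mice of 0.86, 0.87 and 1.14 and no overlap. It stood above 89.2% of all genes tested. Psmd11 shares 97.9% identity over 1501 bases with A730017L22Rik, a processed transcript with a mean of 107 counts per library that was itself lower in wounded epidermis (log2 fold change -0.69, adjusted p = 0.0192 by edgeR). The sum of Psmd11 and its copies had a log2 fold change of 0.90.

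Both large scaffold subunits of the base were called higher. Psmd1 (Rpn2; GRCm38 ENSMUSG00000026229.17, chromosome 1, 86064387 to 86139151, plus strand) had 164, 175 and 164 CPM in wounded epidermis, against 116, 107 and 108 CPM in non-wounded epidermis (log2 fold change 0.60, SE 0.08, adjusted p = 2.43e-04 by edgeR). Psmd2 (Rpn1), a docking site for ubiquitin shuttle proteins and the subunit with the most counts, stood at a log2 fold change of 0.48 (adjusted p = 9.15e-04). The ubiquitin receptor Psmd4 (Rpn10) was higher by 0.45 on the same scale (adjusted p = 0.00133).

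The lid was split, with 4 of its 8 Psmd subunits called higher and 4 not called, where 24.0% of all genes tested were higher. The called ones beside Psmd11 were Psmd12 (Rpn5) at a log2 fold change of 0.50, Psmd6 (Rpn7) at 0.42 and Psmd7 (Rpn8) at 0.33. Psmd7 is the partner of Psmd14 (Rpn11), the enzyme that cuts ubiquitin off the substrate, which stood at 0.07 and was not called. Psmd3 (Rpn3) at 0.12, Psmd13 (Rpn9) at 0.02 and Psmd8 (Rpn12) at -0.06 were not called either, and their groups overlapped. Psmd13 overlaps Sirt3 on the opposite strand. Over base and lid together, 12 of 17 structural 19S subunits were called higher and none lower, which with library totals came to 2 higher and 4 lower. With library totals, 13.5% of all genes tested were higher and 41.4% lower.

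Of the 4 activator genes, 2 were called higher and none lower, and with library totals 1 was higher and 1 lower. Among all genes tested, these shares were 24.0% and 24.4% with TMM, and 13.5% and 41.4% with library totals. Psme3, PA28 gamma (GRCm38 ENSMUSG00000078652.9, chromosome 11, 101316213 to 101323537, plus strand), had 146, 159 and 167 CPM in wounded epidermis, against 82.9, 81.9 and 86.6 CPM in non-wounded epidermis. The 1.88-fold difference (log2 fold change 0.91, SE 0.09, adjusted p = 2.54e-05 by edgeR) had the smallest adjusted p of all proteasome genes, and the ratios within mice were 0.82, 0.96 and 0.94. Psme1 (PA28 alpha) had 105, 102 and 99.8 CPM in wounded epidermis, against 77.4, 76.4 and 74.8 CPM in non-wounded epidermis (log2 fold change 0.43, SE 0.08, adjusted p = 0.00193). Psme2 (PA28 beta), with which Psme1 forms a mixed ring, had 68.4, 64.8 and 63.5 CPM in wounded epidermis, against 66.4, 65.6 and 63.4 CPM in non-wounded epidermis (log2 fold change 0.01, SE 0.09, adjusted p = 0.941). So Psme3 and Psme1 were above in every wounded library, while the libraries of Psme2 overlapped.

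Ratios within a library do not depend on how libraries are scaled. The TPM ratio of Psme3 to Psme2 was 0.416, 0.439 and 0.510 in wounded, against 0.203, 0.224 and 0.223 in non-wounded libraries. That of Psme3 to Psme1 was 0.344, 0.378 and 0.422 in wounded, against 0.216, 0.255 and 0.265 in non-wounded libraries. Neither ratio overlapped between the groups, so the balance of PA28 transcripts lay further towards the gamma form in all 3 wounded libraries. Psme1 overlaps Emc9 on the opposite strand, which had a mean of 166 counts per library against 2065 for Psme1.

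Psme4 (PA200) had 147, 145 and 142 CPM in wounded epidermis, against 113, 126 and 130.5 CPM in non-wounded epidermis. Its groups did not overlap, but at an adjusted p of 0.0505 by edgeR (log2 fold change 0.23) it lay just outside the threshold. It was called with the mouse block (0.0362), with size factors of the RLE kind (0.0406), with DESeq2 (0.0381) and on omitting mouse 3's non-wounded library (0.0487). Psmf1 (PI31), which inhibits the core in the test tube, had 17.1, 17.1 and 18.5 CPM in wounded epidermis, against 26.6, 17.8 and 18.3 CPM in non-wounded epidermis (log2 fold change -0.25, SE 0.16, adjusted p = 0.229). Its groups overlapped, with 1 high non-wounded library in mouse 1.

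Of 7 assembly factors tested, none was called higher, 2 were called lower and 5 were not called, and the median log2 fold change was -0.30. The share of lower calls, 28.6%, was near the 24.4% of all genes tested, of which 24.0% were called higher. With library totals 4 were lower and none higher, where 41.4% of all genes were lower and 13.5% higher. Psmd5 (GRCm38 ENSMUSG00000026869.12, chromosome 2, 34849734 to 34874968, minus strand) had 13.9, 13.2 and 10.4 CPM in wounded epidermis, against 26.0, 26.1 and 20.6 CPM in non-wounded epidermis (log2 fold change -0.95, SE 0.15, adjusted p = 5.92e-04 by edgeR). It was lower in 3 of 3 mice, with ratios of -0.90, -0.98 and -0.99. Psmd5 and Psmd11 thus moved in opposite directions, and their TPM ratio, Psmd11 over Psmd5, was 14.3, 14.9 and 30.4 in wounded, against 4.38, 4.85 and 4.68 in non-wounded libraries.

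Psmg2 (PAC2), which pairs with Psmg1 (PAC1) to order the alpha ring, had 9.42, 9.47 and 10.1 CPM in wounded epidermis, against 15.1, 15.5 and 13.2 CPM in non-wounded epidermis (log2 fold change -0.59, SE 0.14, adjusted p = 0.00609 by edgeR). Psmg1 had 7.87, 6.10 and 6.31 CPM in wounded epidermis, against 10.5, 10.1 and 7.40 CPM in non-wounded epidermis (log2 fold change -0.46, SE 0.20, adjusted p = 0.0766). Both partners had lower means in wounded epidermis, but the groups of Psmg1 overlapped. Psmg1 was called lower with the mouse block (adjusted p = 0.0466), with upper-quartile factors (0.0253), with library totals (0.00691), with limma on filtered TPM (0.0329 and 0.0421) and on omitting mouse 3's non-wounded library (0.0298).

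The second chaperone pair, Psmg3 (PAC3) and Psmg4 (PAC4), was not lower. Psmg3 had 6.51, 6.82 and 7.22 CPM in wounded epidermis, against 6.07, 5.79 and 5.47 CPM in non-wounded epidermis (log2 fold change 0.25, SE 0.18, adjusted p = 0.275 by edgeR). Psmg4 had 3.84, 3.66 and 3.61 CPM in wounded epidermis, against 4.06, 2.93 and 2.80 CPM in non-wounded epidermis (log2 fold change 0.18, SE 0.24, adjusted p = 0.566). These low levels, in the single digits of CPM, limit what could be seen. The base chaperones Psmd10 (gankyrin) and Psmd9 (p27) stood at log2 fold changes of -0.30 and 0.02 and were not called, although all 3 wounded libraries of Psmd10 lay below the non-wounded ones. Psmd10 was called lower with upper-quartile factors (adjusted p = 0.0358 by edgeR), with library totals (0.00627) and with limma on the 3 TPM scales (0.00604 to 0.00745).

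Summed over the 7 assembly factors, TPM were 83.5, 75.3 and 77.1 in wounded, against 135, 117 and 112 in non-wounded libraries. CPM with TMM factors were 70.9, 67.4 and 63.8 in wounded, against 95.2, 89.1 and 76.2 in non-wounded libraries. The groups were apart on both scales, unlike those of the core subunits, whose TPM overlapped. Most of the CPM difference came from the genes called lower, Psmd5 (mean 12.5 in wounded and 24.2 in non-wounded) and Psmg2 (9.67 and 14.6). The sum therefore does not show a fall of the whole class. The assembly factor Pomp, which is named outside the Psm pattern and matures the core, had 75.7, 78.1 and 70.0 CPM in wounded epidermis, against 65.7, 69.1 and 59.5 CPM in non-wounded epidermis (log2 fold change 0.20, SE 0.10, adjusted p = 0.106 by edgeR). It lay above in all 3 wounded libraries without being called.

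The other symbols taken by the name pattern were low. Psmc3ip had 1.08, 1.14 and 0.593 CPM in wounded epidermis, against 3.18, 1.22 and 1.52 CPM in non-wounded epidermis (log2 fold change -1.06, SE 0.46, adjusted p = 0.0778 by edgeR), and it overlaps Mlx on the opposite strand, which had 614 counts on average against 35.7. It was called lower with no filter on low counts (adjusted p = 0.0468 by edgeR), upper-quartile factors (0.0486), library totals (0.0248) or limma on filtered TPM (0.0432 and 0.0456). Psme2b was listed at 0 in the wounded libraries of mouse 1 and mouse 3, at 1.68 CPM in that of mouse 2 and at 0.986, 0.609 and 1.11 CPM in the non-wounded libraries. It is 99.4% identical to Psme2 over 794 bases, so its split from Psme2 is uncertain, and on omitting mouse 2's wounded library it was called lower, with all remaining wounded counts at 0. Adding it to Psme2 left that gene at a log2 fold change of 0.0017 and not called. The pseudogenes that were not tested had at most 1.1 counts per library on average.

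The immunoproteasome replaces the 3 catalytic subunits by inducible ones, and its transcripts had lower means in wounded epidermis. Psmb9 (beta1i) had 15.4, 13.6 and 9.92 CPM in wounded epidermis, against 35.4, 26.6 and 25.3 CPM in non-wounded epidermis (log2 fold change -1.16, SE 0.18, adjusted p = 5.33e-04 by edgeR). Psmb8 (beta5i) had a log2 fold change of -0.35 (adjusted p = 0.0273), a call that was lost without any 1 library except the wounded one of mouse 1 (0.0508 to 0.103). Psmb10 (beta2i) stood at -0.44 (0.0522) and was called lower with the mouse block (0.0439), upper-quartile factors (0.0156), library totals (0.00322) or limma on TPM (0.00489 to 0.00713).

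Each constitutive subunit can be set against the inducible one of its own site within a library. Psmb6 over Psmb9 was 5.29, 6.15 and 9.06 in wounded, against 1.70, 2.04 and 2.35 in non-wounded libraries (ratios of TPM). Psmb7 over Psmb10 was 17.6, 18.4 and 21.2 in wounded, against 12.3, 12.1 and 10.2 in non-wounded libraries. Psmb5 over Psmb8 was 1.604, 1.775 and 1.559 in wounded, against 1.076, 1.289 and 1.102 in non-wounded libraries. All 3 ratios were higher in every wounded library than in any non-wounded one, and the group means differed 3.363-fold at beta1, 1.653-fold at beta2 and 1.425-fold at beta5.

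**Figure D4:**
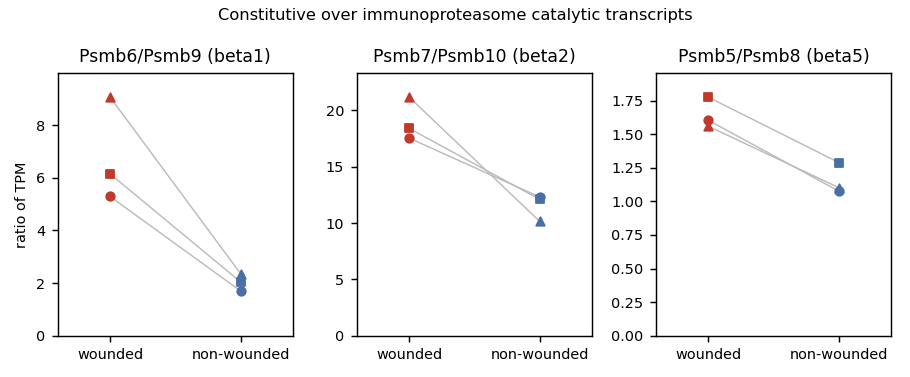
Ratio of deposited TPM of the constitutive to the immunoproteasome subunit (y axis, from 0) at the beta1, beta2 and beta5 sites in wounded (left) and non-wounded (right) libraries, with circle, square and triangle for mouse 1, 2 and 3 and a line per mouse. Every line is lower at the right, and the factor between the group means is largest at beta1.

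Immune cells and keratinocytes can both supply immunoproteasome transcripts, and marker genes of several cell types moved with the groups. Macrophage markers (2 of 4 tested called higher, 2 lower) summed to 46.6 to 68.2 CPM in wounded and 91.4 to 106 CPM in non-wounded libraries. Markers of dendritic epidermal T cells, the gd T cells of the epidermis, summed to 60.9 to 79.2 CPM in wounded and 82.5 to 112 CPM in non-wounded libraries, with 3 of 4 called lower. Langerhans cell markers summed to 1078 to 1391 CPM in wounded and 858 to 917 CPM in non-wounded libraries, with 1 of 3 called higher. Fibroblast markers (5 of 5 tested called higher) summed to 29.5 to 64.5 CPM in wounded and 2.21 to 7.19 CPM in non-wounded libraries. Red blood cell markers (5 of 5) summed to 97.3 to 165 CPM in wounded and 18.9 to 26.1 CPM in non-wounded libraries, and skeletal muscle markers (4 of 5) to 10.6 to 13.8 CPM in wounded and 3.54 to 3.98 CPM in non-wounded libraries. Neutrophil markers (2 of 2 tested) summed to 3.98 to 8.14 CPM in wounded and 1.55 to 2.13 CPM in non-wounded libraries, with Ly6g at 0 counts in all. Endothelial markers summed to 1.39 to 2.37 CPM in wounded and 1.22 to 2.05 CPM in non-wounded libraries, and melanocyte markers to 6.14 to 7.60 CPM in wounded and 3.07 to 4.38 CPM in non-wounded libraries. The part of these cell types in the proteasome results was not tested.

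Genes that work with the proteasome, in lists chosen with earlier results of these data known, had a larger median difference than its own genes. The contrast was not tested, and such a choice can favour genes that differ. Of 39 tested genes for proteasome-bound proteins, the Nrf1 and Nrf2 pathway, and ubiquitin with its shuttles, 25 were called higher, 4 lower and 10 not called, with a median log2 fold change of 0.39. Over all genes tested, 24.0% were higher and 24.4% lower. With library totals the calls were 15 higher and 7 lower of 39, and over all genes tested 13.5% higher and 41.4% lower. Among 12 proteasome-bound proteins, 7 were higher, 1 (the ligase gene Ube3c) lower and 4 not called, and with library totals 4 were higher and 3 lower. Zfand2a (AIRAP), which binds the 19S particle in stressed cells, had 60.4, 67.9 and 75.3 CPM in wounded epidermis, against 19.8, 18.3 and 18.0 CPM in non-wounded epidermis (log2 fold change 1.86, SE 0.11, adjusted p = 2.11e-06 by edgeR). Midn (midnolin), which carries proteins to the proteasome without ubiquitin, had 362, 410.0 and 386 CPM in wounded epidermis, against 164, 182 and 134 CPM in non-wounded epidermis (log2 fold change 1.27, SE 0.12, adjusted p = 2.04e-05). Adrm1 (Rpn13), a ubiquitin receptor of the base, had 103, 112 and 116 CPM in wounded epidermis, against 74.9, 71.8 and 67.2 CPM in non-wounded epidermis (log2 fold change 0.63, SE 0.09, adjusted p = 3.34e-04). None of the 3 overlapped between the groups, which their choice by smallest p makes likely. Of all genes tested, 58.5% did not overlap either.

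In the Nrf1 and Nrf2 pathway, 6 of 10 genes were higher, 3 lower and 1 not called, and with library totals 3 were higher and 3 lower. The 3 lower of 10 lie near the 24.4% of all genes tested with TMM, where 24.0% were higher. With library totals, 13.5% of all genes were higher and 41.4% lower. Nfe2l1 had 550.0, 546 and 513 CPM in wounded epidermis, against 337, 287 and 301 CPM in non-wounded epidermis (log2 fold change 0.80, SE 0.09, adjusted p = 8.51e-05 by edgeR). Syvn1 (HRD1), the ligase that marks Nrf1 for destruction, had 60.0, 66.2 and 76.3 CPM in wounded epidermis, against 31.8, 33.8 and 39.3 CPM in non-wounded epidermis (log2 fold change 0.95, SE 0.12, adjusted p = 1.63e-04). Ngly1, which strips sugars from Nrf1, stood at a log2 fold change of -0.78, and Ddi2, which cleaves it into its active form, at -0.36, and both were called lower. Keap1, the adaptor that holds Nrf2 down, had 17.8, 17.9 and 16.5 CPM in wounded epidermis, against 40.6, 30.2 and 31.9 CPM in non-wounded epidermis (log2 fold change -0.97, SE 0.13, adjusted p = 2.19e-04). Nfe2l2, which encodes Nrf2, was called higher at 0.45. The small Maf genes, whose products pair with both factors, were called higher at 0.60 for Maff, 0.55 for Mafg and 0.39 for Mafk.

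Ubiquitin and shuttle genes had the largest median of these lists, 0.54, with 12 of 17 higher, none lower and 5 not called. The lists were chosen with earlier results known, and their medians were not compared by a test. With library totals 8 were higher and 1 lower. Of all genes tested, 24.0% were higher and 24.4% lower with TMM, and 13.5% and 41.4% with library totals. Sqstm1 (p62), a receptor for ubiquitin-tagged cargo and itself a known Nrf2 target, had 829, 956 and 889 CPM in wounded epidermis, against 176, 174 and 171 CPM in non-wounded epidermis (log2 fold change 2.36, SE 0.09, adjusted p = 4.32e-07 by edgeR), a 5.13-fold difference. Vcp (p97), the ATPase that extracts proteins for degradation, had 515, 520.4 and 489 CPM in wounded epidermis, against 316, 289 and 303 CPM in non-wounded epidermis (log2 fold change 0.75, SE 0.09, adjusted p = 7.09e-05). All 3 mice shared these directions, and the groups lay far apart, which the choice of genes by smallest p makes likely. Ubqln1 was called higher with the mouse block (adjusted p = 0.0215, against 0.0562 without it).

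**Figure D5:**
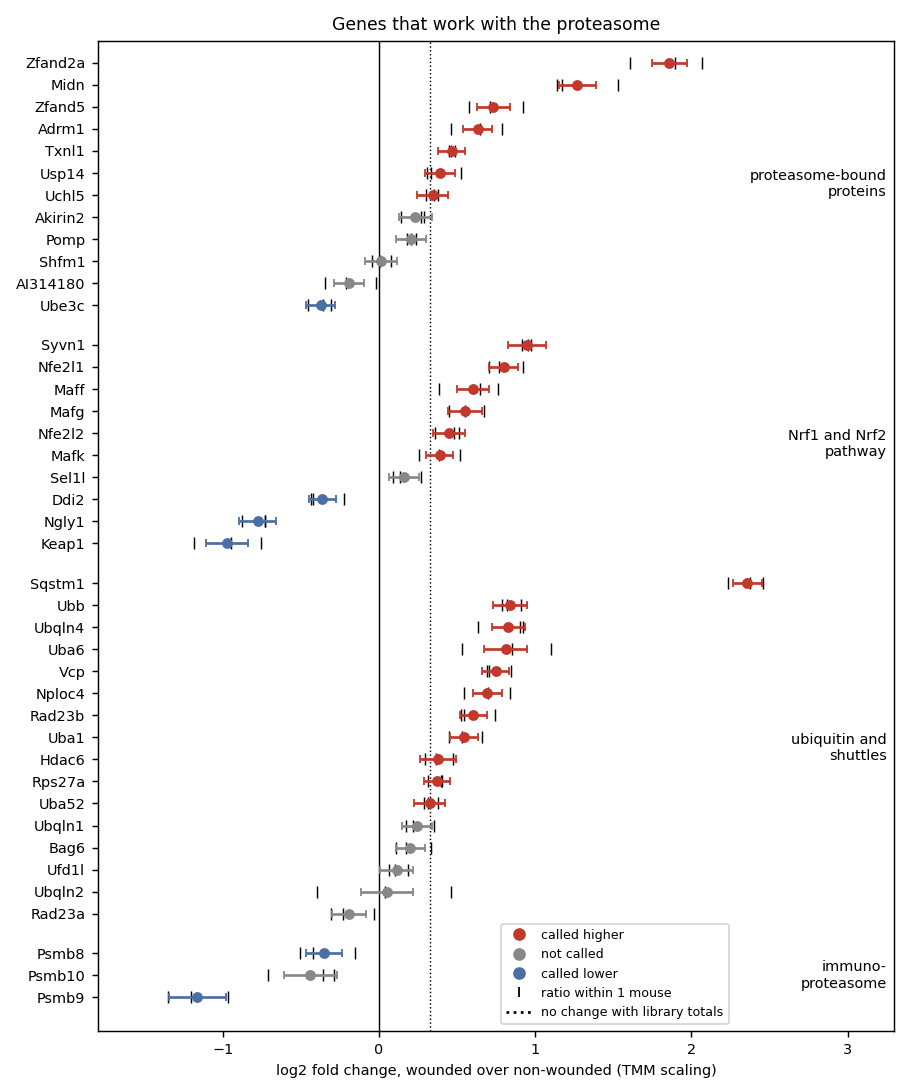
Log2 fold change, wounded over non-wounded (x axis, TMM scaling, bars of 1 SE, ticks for the 3 mice), of listed genes that work with the proteasome and of the 3 immunoproteasome genes. Sqstm1, Zfand2a and Midn lie furthest right, Keap1 and Psmb9 furthest left, and the dotted line shows where no change would lie with library totals.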

How the data were processed

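RNA was sequenced from whole epidermis of 3 mice, wounded and non-wounded. For each gene symbol the authors deposited estimated counts and TPM of the same 6 libraries. Both came from Salmon with build mm10 and comparisons from edgeR, per the submitters' processing notes. The sources used here give no versions, annotation release or strand setting. Between 30.3% and 32.0% of the estimated counts in a library were not whole.

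Estimated counts were rounded. Genes were filtered with filterByExpr, scaled by TMM and tested with edgeR 4.0.16 (glmQLFit, glmQLFTest) in R 4.3.3, wounded against non-wounded, with Benjamini-Hochberg adjustment over 16079 genes and no mouse term. The SE was taken as the size of the log2 fold change over the root of F. The procedure was tested on simulated data in which few genes changed, with rises and falls in equal number. That simulation had no mouse effect and does not bear on the choice of scaling. Alternatives were RLE, upper-quartile and library-total scaling, no filter, DESeq2 1.42.0, a mouse block, limma 3.58.1 on log2(TPM + 1) or log2(TPM + 0.1) with a minimum of 1 TPM in 3 libraries or no filter, each library left out, and members summed with their copies.

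Members and gene lists were chosen with earlier results of these data known. Values per library are given for the called genes with the 2 largest rises and 2 largest falls of a class, the catalytic subunits, uncalled members of a class where 3 or fewer were uncalled, the 3 genes of each list with the smallest p (1 of them is not reported here), and Nfe2l1, Pomp and immunoproteasome genes. Levels of Psme2b were added after its values were seen, as were those of copies, found as transcripts with at least 95% identity over 200 bases. Paaf1, a base chaperone on the list of bound proteins, was not analysed here. The labels place both libraries of a number in 1 mouse, so they are paired by animal. Deviations from the group means correlated at 0.15, 0.04 and 0.17 in mouse 1, 2 and 3. Coordinates come from GENCODE for GRCm38, and the authors' release may differ. Symbols in the files were Shfm1 for Sem1, AI314180 for Ecpas and Ufd1l for Ufd1.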

Additional observations from a re-analysis of the deposited data

How the results depend on the processing

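Counts of calls kept close to the reported values with RLE factors, DESeq2, the mouse block, no filter on low counts and copies summed, and depended on the choice of library scaling. Proteasome genes here are all tested genes of the name pattern, Psmc3ip and Psme2b among them. With upper-quartile factors 12 proteasome genes were higher and 5 lower (reported: 21 and 2), with 3 in the 20S core (reported: 7) and 7 in the 19S particle (reported: 12), and the median log2 fold change was 0.084 (reported: 0.23). With library totals these were 4, 14, 1, 2 and -0.093, and 15 partner genes were higher and 7 lower (reported: 25 and 4). With limma on log2(TPM + 1) they were 2, 7, 0, 1 and -0.11, with 10 partner genes higher. With log2(TPM + 0.1) they were 2, 7, 0, 1 and -0.11, with 10 partner genes, and without a filter 3, 7, 0, 2 and -0.10, with 12 partner genes. These TPM scales carry no TMM factor, and relative to TMM moved all genes by -0.30, -0.33 and -0.29 on the log2 scale (median). Shares of all genes called were not counted for upper-quartile factors or for the TPM scales. With library totals the direction of 19 proteasome genes turned. Called with TMM or library totals were Psma2 (-0.011), Psma4 (-0.30), Psmb1 (-0.28), Psmb7 (-0.053), Psmc1 (-0.28), Psmc3 (-0.094), Psmc5 (-0.087), Psmd13 (-0.30), Psmd14 (-0.26) and Psme2 (-0.32), and the other 9 (Psma6, Psma7, Psmb3, Psmb5, Psmd3, Psmd9, Psme4, Psmg3 and Psmg4) were called with neither. On each of the 3 TPM scales the direction of 23 turned. Called there or with TMM were Psma2 (-0.031), Psma5 (-0.097 with 1 added and -0.099 with 0.1), Psmb4 (-0.017), Psmb7 (-0.073 and -0.074), Psmc2 (-0.017), Psmc3 (-0.099), Psmc5 (-0.11), Psmd7 (-0.018) and Psme2 (-0.36), and the rest were called with neither, except Psma4 (-0.30) and Psmb1 (-0.30), which were called lower without a filter. With upper-quartile factors 9 turned, all called with neither. Leaving out 1 library gave 16 to 20 proteasome genes higher and 2 to 3 lower, 4 to 7 higher in the core, 10 to 11 in the 19S particle, 23 to 26 partner genes higher and 4 to 5 lower, and medians of 0.18 to 0.26. The core count was 4 on omitting mouse 2's wounded or mouse 3's non-wounded library. With the mouse as a replicate block, 23 proteasome genes were higher and 3 lower, with Psma6, Psme4 and Psmg1 gained, Psmb10 and Ubqln1 gained outside the members, and no call lost among the genes given here. Summing members with copies found by transcript sequence was chosen after seeing the data and changed no call. Depth limits Psmb11, Psme2b, Psmc3ip and Psmg4, which had few counts.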
